A study of Mus musculus with 6 samples.

Results

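The genes described here encode the machinery that carries proteins into mitochondria, as measured in a largely fast-fibred shin muscle, the tibialis anterior, of castrated and sham-operated mice. They were taken by gene symbol, as the Timm and Tomm families, Pam16, Dnajc19, Samm50, the metaxins Mtx1 to Mtx3, the Grpel genes and the Pmpc genes. The rule found 36 symbols on the array, of which 32 had a probe set that names a single gene, out of 22180 genes so measured. Dnajc19, Tomm5, Tomm6 and the antisense transcript Tomm6os share their probe sets with other genes and were left out of the counts below. The probe set with the highest mean stood for each gene, and 2 of the 32, Timm8a1 and Timm10b, had more than 1.

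The 6 samples come from male C57Bl/6 mice, 3 sham and 3 castrated. Surgery took place at an age of 11 weeks and the muscle was taken at 18 weeks. The sham samples carry the feeding label fasted and the castrated samples the label refed, a 30 minute meal followed by 4 hours without food, so surgery and feeding cannot be told apart in any difference below. The protocol attached to every sample, unlike the series design, describes the meal for all mice. The labels name no genetic alteration in either group and do not say whether any tissue was pooled. Nothing beyond a mouse named for each sample says that they are different animals, so a p-value here reflects the spread among samples, which may be partly technical.

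Nearly all mitochondrial proteins are encoded in the nucleus, made in the cytosol and imported. They enter through the TOM complex of the outer membrane and are then sorted, to the outer membrane by the SAM complex, across the intermembrane space by the small TIM chaperones, into the inner membrane by the TIM22 translocase, or into the matrix by the TIM23 translocase with its ATP-driven motor, after which the processing peptidase cuts off the targeting presequence. Muscle fibres are rich in mitochondria, and slow fibres hold more of them than most fast fibres do.

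The array medians lay within 5.04 to 5.10 on the log2 scale, but all castrated medians were above all sham medians. They were 5.040, 5.036 and 5.039 in sham samples 1, 2 and 3, and 5.095, 5.052 and 5.080 in castrated samples 1, 2 and 3. Centring the arrays on their medians moved the median difference of the import genes from -0.085 to -0.12, and that of all genes from -0.0056 to -0.043. Other normalizations made the import median smaller, at -0.064 after quantile normalization and -0.059 with cyclic loess. Castrated sample 1 stood apart in slow-fibre contractile genes, whose summed linear level over 8 genes was 1603.2 in that sample, against 740.7 and 747.5 in the other castrated samples and 705.4 to 865.4 in sham. Genes that define muscle fibres were high in all samples, with a sum over 12 genes of 94595.9 to 101259 in sham and 94073.6 to 97559.4 in castrated. Of these 12 genes 7 were lower in castrated samples and 5 higher, with a median log2 difference of -0.038. In 4 of them, or 33.3%, all castrated values lay below all sham values, against 10% of genes above the 50th percentile of mean level. These were Mb (-0.25), Myh1 (-0.17), Tnni2 (-0.17) and Des (-0.13). The summed level of 5 adipocyte markers was 1854.9 to 2271.3 in sham and 2454.4 to 2610.2 in castrated, a gap carried by Fabp4, which endothelial cells also express. Fabp4 was the brightest of the 5 and the one whose groups did not overlap, with a log2 difference of 0.28, while Lep, Adipoq, Plin1 and Cidec overlapped, with differences of 0.51, 0.27, 0.18 and -0.000057. The 5 brown adipocyte markers summed to 2096.4 to 2563 in sham and 1859.7 to 2053.9 in castrated, and there the gap was that of Cox8b, a respiratory chain subunit also made by muscle fibres, with a log2 difference of -0.24. The other brown adipocyte markers were dim and overlapped, with differences of -0.36 for Cidea, -0.024 for Dio2, 0.045 for Ucp1 and 0.060 for Elovl3. The summed tendon markers overlapped slightly (577.4 to 930.1 in sham against 851.3 to 1145.4 in castrated over 6 genes). Yet 5 of the 6 were higher in castrated samples, with a median log2 difference of 0.50, and only Scx was lower (-0.043). Kera (0.89) and Mkx (0.52) had groups that did not overlap, a pattern of 5.73% of all genes. The sums of macrophage, endothelial, progenitor, satellite cell and Schwann cell markers overlapped to a larger extent. Within those lists the endothelial marker Cldn5 (-0.65) and the progenitor marker Pi16 (-0.49) were lower without overlap, a pattern of 7.02% of all genes. The satellite cell marker Vcam1 (0.22) was higher without overlap, and the other markers of those lists overlapped. The part of any of the patterns above in the values below was not tested. Nor can whole-muscle RNA separate fewer cells of a type from less RNA per cell.

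Import genes were slightly lower in castrated muscle as a group, and none of them passed the test. Of the 32 genes 25 had a lower mean in castrated samples and 7 a higher one, with a median log2 difference of -0.085, which is a change of -5.74% on the linear scale. Over all 22180 genes 51.5% were lower and the median was -0.0056. The import genes are brighter than most, 30 of them lying above the 50th percentile of genes by mean level, and among those brighter genes 59.2% of 11091 genes were lower, with a median of -0.030. The differences ran from -0.29 for Timm50 to 0.086 for Timm10. No member passed the limma test at an adjusted p of 0.05, the smallest being 0.687 for Timm50, where 0.0135% of all genes passed.

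At an unadjusted limma p under 0.05 there were 2 members, Timm50 and Pam16, both lower. That is 6.25% of the members against 7.13% of all genes, a share near the background, of which 3.51% were lower and 3.62% higher. Among genes above the 50th percentile 4.14% were lower with such a p. All castrated values lay below all sham values for 5 members, or 15.6%, namely Timm50, Pam16, Tomm20, Tomm40l and Samm50, and no member had the opposite pattern. Over all genes the groups did not overlap for 12.8%, with 7.02% lower and 5.73% higher. Among genes above the 50th percentile 10% did not overlap and were lower. Without castrated sample 1 the median over the members was -0.079, with 25 still lower and 0 past the adjusted threshold. Without sham sample 3 it was -0.050, with 23 lower.

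**Figure D1:**
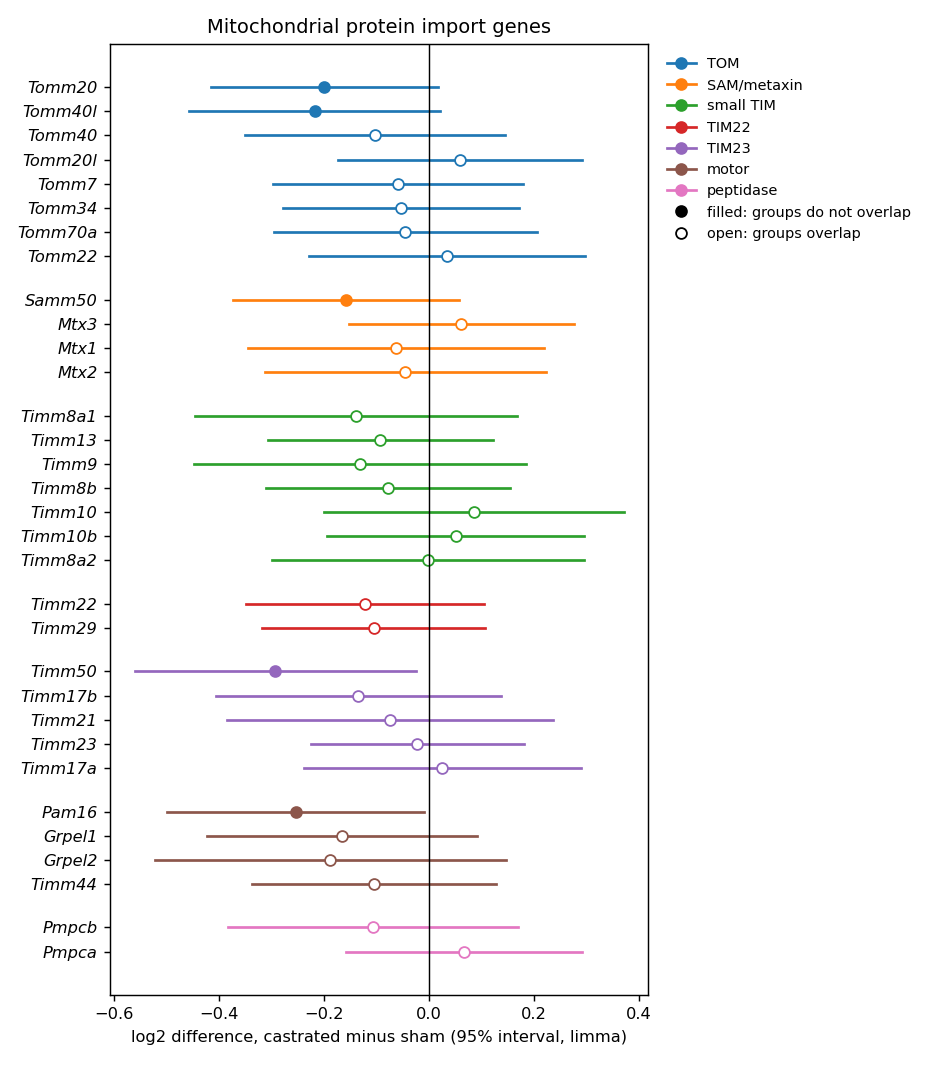
Each row is an import gene, with its log2 difference (castrated minus sham, n = 3 each) as a point and the 95% interval of the limma fit as a line, coloured by role; filled points mark the 5 genes whose groups do not overlap. Most points lie left of 0, and only the intervals of Timm50 and Pam16 leave 0 out.

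**Figure D2:**
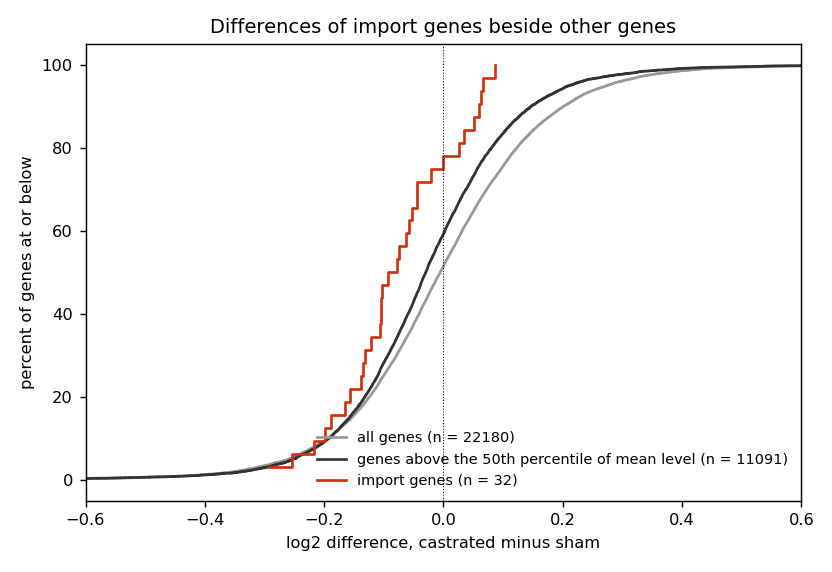
Cumulative distribution of log2 differences (castrated minus sham) for the 32 import genes, for all 22180 genes and for the 11091 genes above the 50th percentile of mean level; the horizontal axis is log2 units, cut at both ends, and the vertical axis is the percent of genes at or below a value. The line of the import genes crosses 0 at 78.1%, above 59.2% and 51.5% for the other curves, while its lower end lies on them.

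The lower level was not shared by all castrated samples. With each gene centred on its mean over the 6 arrays, the median over the import genes was 0.013, 0.042 and 0.063 in sham samples 1, 2 and 3, and -0.048, 0.024 and -0.081 in castrated samples 1, 2 and 3. Castrated sample 2 therefore lay above sham sample 1, and the groups overlap. In castrated samples 1 and 3, 23 and 25 of the 32 genes were under their own mean, against 14 in castrated sample 2 and 14, 9 and 9 in sham. Set against the range of the 3 sham values, castrated sample 1 had 15 genes below it and 1 above, castrated sample 2 had 10 below and 5 above, and castrated sample 3 had 13 below and 1 above. For all genes above the 50th percentile of mean level the share below that range was 36.4%, 26.1% and 30.2% in the same order, against 46.9%, 31.2% and 40.6% of import genes. Without castrated sample 2 the median over the import genes was -0.13.

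The TOM complex is the entry gate, and its receptor Tomm20 was lower in every castrated sample. Tomm20, which recognises presequences, had log2 values of 7.96, 7.95 and 7.94 in sham and 7.82, 7.79 and 7.65 in castrated. Its sham samples were close together (SD 0.011, n = 3) and the castrated values were all below them, with a difference of -0.20 (standard error 0.096, limma adjusted p = 0.725), or -12.9%. Tomm40l, a relative of the channel protein, was at 6.99, 7.03 and 6.94 in sham and at 6.87, 6.82 and 6.61 in castrated, with no overlap and a difference of -0.22 (standard error 0.11, limma adjusted p = 0.729). That difference was -0.14 without castrated sample 3, the lowest of the group.

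The channel itself and the other receptors showed smaller differences with overlapping groups. Tomm40, which forms the pore, had values of 8.13, 8.33 and 8.03 in sham and 8.13, 8.02 and 8.04 in castrated. Its difference of -0.10 rests on sham sample 2, without which it was -0.018. Tomm22, the receptor that organises the complex, had 8.50, 8.45 and 8.32 in sham and 8.42, 8.64 and 8.31 in castrated, and Tomm70a, the receptor for carrier proteins, had 8.65, 8.74 and 8.96 in sham and 8.69, 8.79 and 8.74 in castrated. For Tomm70a all castrated values fell within the sham range, while for Tomm22 castrated sample 2 lay above that range and castrated sample 3 just below it. The differences were 0.035 and -0.045, with 95% intervals of -0.23 to 0.30 and -0.30 to 0.21. The small subunit Tomm7 differed by -0.058, the cytosolic co-chaperone Tomm34 by -0.053 and Tomm20l, a Tomm20 relative, by 0.059. Of the 8 measured TOM genes 6 were lower, with a median of -0.056.

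In the SAM complex, which folds barrel proteins into the outer membrane, the core subunit Samm50 was lower and the metaxins were not separated. Samm50 had values of 9.81, 9.75 and 9.78 in sham and of 9.69, 9.64 and 9.53 in castrated. The groups do not overlap, and the difference was -0.16 (standard error 0.095, limma adjusted p = 0.782), or -10.3%. The metaxins Mtx1, Mtx2 and Mtx3, which are partners of Samm50, differed by -0.063, -0.045 and 0.062, each with overlapping groups.

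The small TIM chaperones, which shield hydrophobic proteins in the intermembrane space, had 5 of 7 genes lower, with a median of -0.078 and no gene whose groups did not overlap. Timm8a1 differed by -0.14, Timm9 by -0.13, Timm13 by -0.092, Timm8b by -0.078, Timm10b by 0.051 and Timm10 by 0.086. Single samples set much of these values: leaving out castrated sample 1 moved Timm9 to -0.0040 and leaving out castrated sample 2 moved it to -0.23, while Timm10 was at 0.018 with sham sample 2 left out and at 0.22 with sham sample 3 left out. Timm8b was at -0.036 without castrated sample 3 and Timm13 at -0.052 without castrated sample 2. Timm8a2, a relative of Timm8a1, differed by -0.0015 and lay near the array median at 5.14 in both groups. The Timm8a1 value rests on sham sample 3, which stood at 7.18 against 6.74 and 6.72 in the other sham samples. Another, dimmer probe set of Timm8a1 read 5.88, 5.97 and 6.25 in sham and 5.61, 5.71 and 5.85 in castrated, with no overlap and a difference of -0.31, and the dimmest one differed by -0.047, so its probe sets disagree in size.

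Timm22, the channel that inserts carrier proteins into the inner membrane, and its partner Timm29 were both lower by little more than the standard error of the difference. Timm22 had values of 5.79, 6.01 and 5.88 in sham and 5.75, 5.75 and 5.81 in castrated, a difference of -0.12 (standard error 0.10) that was -0.062 without sham sample 2. Timm29 had values of 7.06, 7.03 and 7.11 in sham and 6.93, 7.03 and 6.92 in castrated, a difference of -0.10 (standard error 0.094). In both genes 1 castrated sample lay inside the sham range.

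In the TIM23 translocase, the presequence gate of the inner membrane, the receptor Timm50 had the lowest p of all members while the channel Timm23 hardly differed. Timm50, which takes over presequences from the TOM complex, had values of 8.16, 7.84 and 7.85 in sham and 7.66, 7.74 and 7.57 in castrated. All castrated samples were lower, by -0.29 (standard error 0.12, limma adjusted p = 0.687), or -18.4%. The highest value is sham sample 1, without which the difference was -0.19. Timm23, the channel, had values of 11.73, 11.79 and 11.76 in sham and 11.73, 11.74 and 11.74 in castrated. Both groups were tight and overlapped, and the difference was -0.022 with a 95% interval of -0.23 to 0.18.

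The other TIM23 subunits varied between sham samples. Timm17b, a channel subunit, had values of 7.53, 7.32 and 7.15 in sham and of 7.09, 7.23 and 7.27 in castrated, and its difference of -0.13 was -0.037 without sham sample 1. Its paralog Timm17a differed by 0.026 and Timm21, which links the translocase to respiratory complexes, by -0.075. Of the 5 genes 4 were lower, with a median of -0.075.

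The import motor was the only role of more than 2 genes in which every counted member was lower, with 4 of 4 and a median of -0.18. Among genes above the 50th percentile of mean level 59.2% were lower. Dnajc19, a J-protein of the motor, was not counted because its probe sets are shared with other genes. Those probe sets went the other way, by 0.043 and 0.098, with overlapping groups. Dnajc15, another J-protein and a gene of the wider import machinery outside the symbol rule, was lower by -0.12, also with overlapping groups. Pam16, the regulator that holds a J-protein of the motor, had values of 6.73, 6.42 and 6.58 in sham and of 6.30, 6.34 and 6.33 in castrated. The castrated samples were close together and below all sham samples, and the difference was -0.25 (standard error 0.11, limma adjusted p = 0.696), or -16.2%. Without sham sample 1 it was -0.18. Timm44, which tethers the motor to the channel, had 8.79, 8.99 and 8.99 in sham and 8.77, 8.90 and 8.79 in castrated, a difference of -0.11.

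The nucleotide exchange factors of the motor overlapped between the groups. Grpel1 had values of 8.17, 7.995 and 8.15 in sham and of 7.76, 8.04 and 8.02 in castrated. Its difference of -0.16 (standard error 0.11) was -0.075 without castrated sample 1, the lowest. Grpel2 had values of 7.09, 7.29 and 7.65 in sham and of 7.09, 7.28 and 7.09 in castrated, so its difference of -0.19 (standard error 0.15) rests on sham sample 3, without which it was -0.036. Their shared partner Hspa9, the matrix chaperone that drives the motor, differed by -0.11 and was not among the genes chosen by symbol.

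The subunits of the processing peptidase went in opposite directions, both within the spread. Pmpca, the subunit that binds the substrate, had values of 9.37, 9.42 and 9.21 in sham and of 9.42, 9.42 and 9.36 in castrated, a difference of 0.066 that was 0.0052 without sham sample 3. Pmpcb, the catalytic subunit, had values of 8.98, 9.16 and 9.25 in sham and of 9.09, 9.14 and 8.83 in castrated. Its difference of -0.11 was -0.011 without castrated sample 3.

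**Figure D3:**
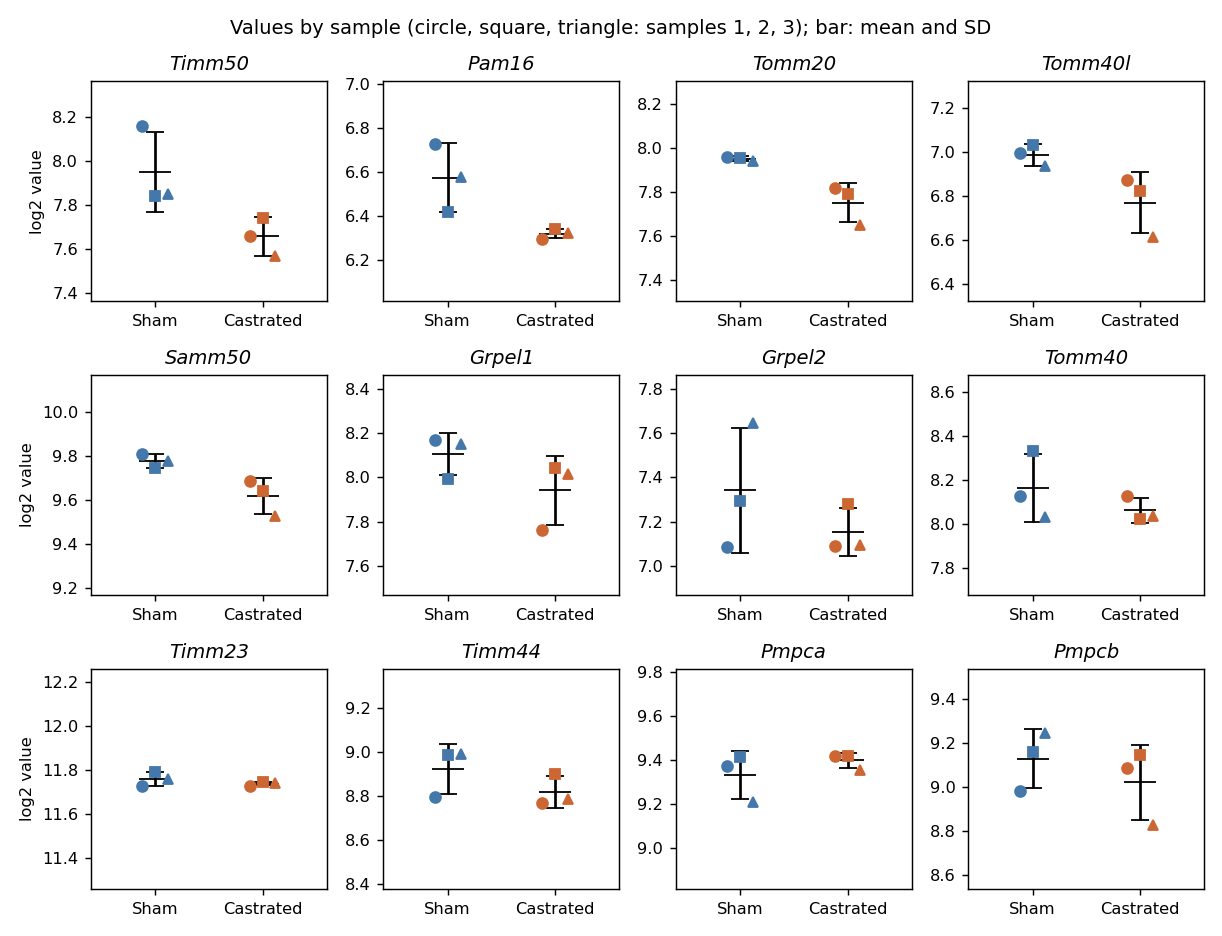
Deposited log2 values of 12 import genes in each sample, with sham in blue and castrated in orange, samples 1, 2 and 3 as circle, square and triangle, and bars for the mean and SD (n = 3); each panel spans 1 log2 unit. Timm50, Pam16, Tomm20, Tomm40l and Samm50 have all castrated points below all sham points, while Timm23 is level and Pmpca and Pmpcb overlap.

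Paralogs and partner subunits were compared within each array for 7 pairs, with an exact two-sided permutation test over the 6 samples, which cannot give a p under 0.1 with 3 against 3. Tomm20 minus Tomm20l was 2.69 ± 0.062 (SD, n = 3) in sham and 2.43 ± 0.16 in castrated, a difference of -0.26 with the smallest possible value, exact permutation p = 0.1, which was 0.7 after Benjamini-Hochberg adjustment over the 7 pairs. Tomm20l lay near the array median, and its standing against background was not tested. In the other 6 pairs the groups' values mixed, with exact permutation p from 0.3 for Tomm40 minus Tomm40l to 1 for Mtx1 minus Mtx2. Grpel1 minus Grpel2 differed by 0.023 between groups, Timm17a minus Timm17b by 0.16, Pmpca minus Pmpcb by 0.17 and Timm8a1 minus Timm8b by -0.060.

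Promoters are shown for Timm50, Pam16 and Tomm20, the non-overlapping members in which a searched motif was found, and for Timm23, whose level hardly differed. The windows run from 250 bases before to 50 after the annotated start and come from RefSeq on build GRCm38.p6, in which 28 of the 32 members were matched by gene identifier. Grpel2, Timm21, Tomm7 and Tomm40l had no entry. Capitals mark the motif, written 5′ to 3′ along the gene, which is the NRF1 motif (GCGCA, any base, then GCGC) in Pam16 and Tomm20, AAGATGGCG of YY1 in Timm50, and CCGGAAGT of the ETS factor GABP in Timm23, read on either strand. NRF1, GABP and YY1 are general activators of nuclear genes for mitochondrial proteins.
Timm50 (chr7:28311997-28312296, minus strand): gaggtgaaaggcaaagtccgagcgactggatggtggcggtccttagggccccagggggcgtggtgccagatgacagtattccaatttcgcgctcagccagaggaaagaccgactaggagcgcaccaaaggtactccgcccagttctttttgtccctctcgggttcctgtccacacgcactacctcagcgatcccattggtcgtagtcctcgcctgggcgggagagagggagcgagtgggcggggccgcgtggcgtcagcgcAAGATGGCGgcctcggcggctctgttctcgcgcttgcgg
Pam16 (chr16:4624897-4625196, minus strand): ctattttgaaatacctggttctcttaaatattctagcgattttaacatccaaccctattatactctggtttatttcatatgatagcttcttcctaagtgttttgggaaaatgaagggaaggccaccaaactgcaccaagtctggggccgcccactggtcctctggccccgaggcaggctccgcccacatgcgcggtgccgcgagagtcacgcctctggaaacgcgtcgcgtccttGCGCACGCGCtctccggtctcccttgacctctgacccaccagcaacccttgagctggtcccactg
Tomm20 (chr8:126945872-126946171, minus strand): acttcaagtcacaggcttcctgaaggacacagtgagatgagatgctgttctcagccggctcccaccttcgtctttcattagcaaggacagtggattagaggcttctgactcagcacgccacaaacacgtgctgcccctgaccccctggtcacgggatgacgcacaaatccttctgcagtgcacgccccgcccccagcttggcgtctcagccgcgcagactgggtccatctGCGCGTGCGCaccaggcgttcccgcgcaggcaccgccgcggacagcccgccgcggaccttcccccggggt
Timm23 (chr14:32201842-32202141, minus strand): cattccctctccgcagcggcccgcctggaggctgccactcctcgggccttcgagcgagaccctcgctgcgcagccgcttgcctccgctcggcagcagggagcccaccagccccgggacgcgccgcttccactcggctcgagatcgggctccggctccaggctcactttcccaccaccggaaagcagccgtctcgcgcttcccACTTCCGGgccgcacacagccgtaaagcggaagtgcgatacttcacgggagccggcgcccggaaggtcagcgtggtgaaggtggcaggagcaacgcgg
The match in Pam16 runs from base -15 to -6 before the start, that in Tomm20 from -20 to -11 on the opposite strand and that in Timm23 from -48 to -41 on the opposite strand, while the Timm50 match lies after the start, at bases 12 to 20.

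The GABP motif was present in 9 of the 28 members, or 32.1%, against 5.64% of the 16918 measured genes with an entry and 3.89% of all 32851 windows of the table. Members that hold it were Mtx2, Mtx3, Pmpcb, Timm8a2, Timm10, Timm10b, Timm23, Timm29 and Tomm70a. Their median log2 difference was -0.022, against -0.11 for the 19 members without it. The groups were separated for 0 of the 9 and for 4 of the 19. For the NRF1 motif the order was the other way, with a median of -0.20 over 3 members with it against -0.063 over 25 without it. Here the groups were separated for 2 of the 3 and for 2 of the 25. Of all genes 7.02% were separated and lower, and of genes above the 50th percentile of mean level 10%. Counts this small cannot tell members with a motif from those without. For YY1 the medians were -0.063 over 3 members with it and -0.092 over 25 without. The NRF1 motif was present in Pam16, Timm8b and Tomm20 (10.7% of members, 7.26% of measured genes and 4.6% of windows), and the YY1 motif in Mtx1, Mtx3 and Timm50 (10.7% of members, 2.18% of measured genes and 1.4% of windows). The motif of the estrogen-related receptor, TNAAGGTCA, was found in Timm8b alone (3.57% of members, 1.18% of measured genes, 1.28% of windows). The androgen response element (AGAACA and TGTTCT, with 3 bases of any kind between) was found in 0 members and in 0.00913% of windows. No motif overlapped another in these windows. These matches describe letters in a short window and were not tested against the differences. Motif shares among genes above the 50th percentile of mean level, where 30 of the 32 members lie, were not computed. The shares above therefore make no allowance for brightness.

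Other genes of import and mitochondrial upkeep, from lists outside the symbol rule, were in the majority lower, by small amounts in most cases. Of 19 measured genes of the wider import machinery 14 were lower and 5 higher, with a median of -0.045, where 59.2% of genes above the 50th percentile of mean level were lower. In this list 1 of the 19, or 5.26%, had an unadjusted limma p under 0.05, where 7.13% of all genes did. That was Hscb, a co-chaperone of iron-sulfur cluster assembly, at 6.41, 6.41 and 6.37 in sham and 6.22, 6.19 and 6.05 in castrated, a difference of -0.24 (limma adjusted p = 0.685). Gfer, the oxidase that recharges the disulfide relay, differed by -0.22 (standard error 0.11), and Chchd4, the import receptor of that relay, by -0.043. The castrated values of Gfer (7.21, 7.36 and 7.03) were all below its sham values (7.41, 7.46 and 7.40). The largest difference of the list was upward, in Hsp90aa1, the cytosolic chaperone that delivers carrier proteins to the TOM complex. It had values of 7.50, 7.75 and 7.73 in sham and 7.63, 8.35 and 7.99 in castrated, which overlap, and a difference of 0.33 (standard error 0.17, limma adjusted p = 0.752).

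Matrix chaperones and proteases had 9 of 13 genes lower, with a median of -0.058. In 4 of them, or 30.8%, all castrated values lay below all sham values, namely Lonp1, Parl, Spg7 and Dnaja3. That share was 15.6% for import genes and 10% for genes above the 50th percentile of mean level. Lonp1, the main matrix protease, stood at 8.26, 8.10 and 8.24 in sham and at 7.90, 7.94 and 7.98 in castrated, with no overlap and a difference of -0.26 (standard error 0.096, limma adjusted p = 0.671). The inner-membrane protease Parl differed by -0.19 and the folding chaperone Hspd1 by 0.064. The cristae-organising complex had 9 of 10 genes lower, with a median of -0.077, among them Micos13 (-0.24), Chchd6 (-0.14) and its core protein Immt (-0.095). No gene of these lists passed the limma test over all genes.

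Genes often read as markers of mitochondrial content had a median near 0. Of 10 such genes 6 were lower, with a median of -0.0063, and citrate synthase, Cs, differed by -0.0044, the outer membrane channel Vdac1 by -0.0082, malate dehydrogenase, Mdh2, by -0.079 and cytochrome c, Cycs, by -0.073. The 95% interval for Cs was -0.22 to 0.21. Among 12 regulators of mitochondrial biogenesis, 8 were lower with a median of -0.030. The coactivator Ppargc1a stood out, at 8.84, 9.03 and 8.97 in sham and 9.41, 10.53 and 10.16 in castrated, a difference of 1.09 (standard error 0.24, limma adjusted p = 0.446). Its partners in mitochondrial gene control did not share that direction, with Nrf1 at -0.13, Gabpa at -0.036 and Gabpb1 at -0.22 and limma adjusted p of 0.807, 0.967 and 0.735. The estrogen-related receptor gene Esrra was at -0.16 (limma adjusted p = 0.786). Esrra and Nrf1 had all castrated values below all sham values, as 10% of genes above the 50th percentile of mean level did. Besides Ppargc1a, the genes of this list that were higher were Ppargc1b (0.027), Tfb2m (0.019) and Tfam (0.0013). Atf5, a factor of the mitochondrial stress response, differed by -0.20, and that list of 9 genes had a median of -0.040 with 5 lower.

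**Figure D4:**
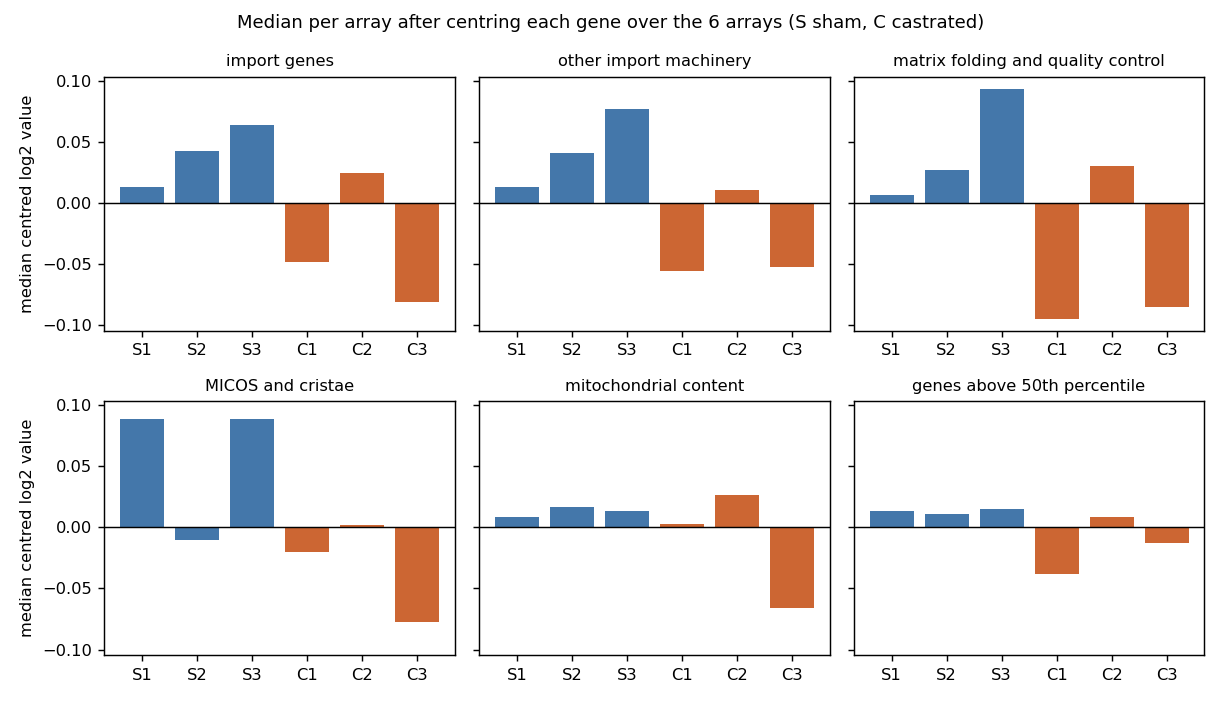
Bars give, per array (S sham, C castrated), the median over a gene list after each gene was centred on its mean over the 6 arrays, in log2 units. Import genes, wider import machinery and matrix chaperones are lowest in castrated samples 1 and 3 and near or above 0 in castrated sample 2, while content genes are low in castrated sample 3 alone.

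Castrated sample 2 had the highest median of its group for the wider import machinery, matrix chaperones, cristae genes, content genes and biogenesis regulators, but the lowest for the stress response list. In castrated samples 1, 2 and 3 the centred median was -0.055, 0.010 and -0.052 for the wider import machinery and -0.095, 0.030 and -0.085 for matrix chaperones and proteases. For content genes it was 0.0029, 0.026 and -0.066, and for all genes above the 50th percentile of mean level -0.038, 0.0086 and -0.013. For the stress response list it was -0.023, -0.073 and -0.030.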

How the data were processed

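RNA of the tibialis anterior from 3 sham and 3 castrated samples was hybridised to Affymetrix whole-transcript arrays. The authors deposited normalized log2 values, 1 per probe set. The processing notes of the submitters name Partek, but how background, summarization and normalization were done is not stated in the labels. The number of arrays limits the precision.

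Of 41345 probe sets, 23521 carry a single gene symbol in the platform annotation, 1814 several and 16010 none. Symbols were updated through Entrez identifiers (23328 matched, GRCm38.p6), giving 22180 genes by highest-mean probe set, with no filter on dim genes. Castrated minus sham was fitted over all genes with limma 3.58.1 in R 4.3.3 (lmFit, eBayes, no covariate, Benjamini-Hochberg, threshold 0.05). On simulated data for this comparison (22180 genes) 24% of genes with a log2 change of 0.5 were recovered, 68% at 1 and 100% at 1.5, with 3 false calls. No change smaller than 0.5 was simulated. The differences of the import genes, -0.29 to 0.086, are smaller, so these rates do not cover them. Members and lists were chosen with earlier results of these data known. Values in every sample are given for the 10 members with the smallest p and a fixed set of core subunits. Each other list is represented by its 2 smallest p and fixed genes, and some further genes are named for their direction or separation. Red blood cell markers had no single-gene probe set. Alternatives were other normalizations, filters, probe set rules, variance priors, array weights, the replicate number as a block, and each sample left out. Protein sequences were not used here. Figures were drawn with matplotlib 3.10.9.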

Additional observations from a re-analysis of the deposited data

How the results depend on the processing

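The import genes past the adjusted threshold stayed at 0 under all 17 alternatives and at an adjusted p under 0.10, the smallest member adjusted p being 0.412, and 23 to 27 members were lower. Of the 32 genes, 21 kept their direction throughout, Timm50, Pam16, Tomm20, Tomm40l and Samm50 among them. The spread of the median was taken as 0.042, the within-group SD of the per-array medians. From its main value of -0.085 the median moved past that spread only without castrated sample 2 (-0.13), and only just. It stayed narrowly inside with centred arrays (-0.12) and without sham sample 3 (-0.050), the other end of the range without each sample in turn. Members at an unadjusted p under 0.05 numbered 1 after quantile normalization, with cyclic loess and with the replicate block, 4 after centring on array medians, with the 50th percentile filter and with the trended robust prior, and 0 to 2 without each sample (0 without sham sample 1, castrated sample 1 or castrated sample 3). Of all genes tested, 6.95%, 7% and 7.56% had such a p in the settings that gave 1, in the order named. In those that gave 4 the share was 7.7%, 9.38% and 7.51%, and without each sample 5.98% to 6.9%. Non-overlapping members numbered 8 with centred arrays, where all genes shifted to a median of -0.043 and 14.1% of them did not overlap. Without a sample such members numbered 6 to 11, when 21.9% to 24.1% of all genes did not overlap. Genes called over the whole array numbered 9 and 16 with the 25th and 50th percentile filters, 10 with the trended robust prior and 0 without variance moderation. The causes were not tested.

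Signs changed for Timm10b with its lowest-mean probe set (-0.017), Timm17a (-0.012) and Tomm22 (-0.0026) with centred arrays, Timm23 with cyclic loess (0.00035) and Timm8a2 with array weights (0.00015). Without each sample the values ran from -0.17 to 0.0094 for Mtx1, -0.13 to 0.044 for Mtx2, -0.035 to 0.10 for Timm10b, -0.083 to 0.097 for Timm17a, -0.19 to 0.043 for Timm21, -0.22 to 0.0095 for Timm8a1, -0.079 to 0.11 for Timm8a2, -0.058 to 0.11 for Tomm22, -0.11 to 0.0035 for Tomm7 and -0.11 to 0.045 for Tomm70a. They ran from -0.11 to 0.18 for Grpel1 minus Grpel2, -0.17 to 0.089 for Mtx1 minus Mtx2, -0.046 to 0.32 for Timm17a minus Timm17b and -0.13 to 0.076 for Timm8a1 minus Timm8b. The sample titles give numbers but no pairing. Deviations of same-numbered samples correlated at 0.076, 0.033 and 0.047, each highest with its own number. Whether same-numbered samples share more than the number was not tested. The replicate block left 0 members called and 1 at an unadjusted limma p under 0.05, with the median at -0.085.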
